A study of Lotus japonicus with 12 samples.

Results

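The genes described here are the 69 most abundant annotated nuclear transcripts of Lotus japonicus root nodules, those whose FPKM averaged 1000 or more over all 12 libraries of the table. FPKM is a count of sequenced fragments corrected for the length of the transcript and the size of the library. Genes were kept if their identifier placed them on one of the numbered chromosomes and did not end in _LC, which left 20478 of the 29531 rows of the table to choose from. The 69 genes were chosen by their mean FPKM, so a high level is a description and not a finding, and a gene that reached the threshold through 1 or 2 groups had to differ between groups. The identifiers carry no gene names or functions in the table, and 0 of the 40429 rows of the RefSeq gene table matched one, so the genes are given by identifier, with no role and no sequence.

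The libraries came from nodules of 2 genotypes, the mutant cpop1 (named hemf2 in the table's columns and cpop1/hemf2 in the genotype label) and the wild type (WT). The groups were cpop1 at 21 days post inoculation (dpi), WT at 21 dpi, cpop1 at 10 dpi and WT at 10 dpi, with 3 libraries each. Plants of every group were inoculated with the rhizobium M. loti (Mesorhizobium loti) MAFF 303099 as seedlings growing on vermiculite. The kind of allele and the age of the plants are not stated in the labels. Nor do these say whether replicate libraries were made from different plants, so p-values cover only a spread that may be technical.

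Legumes take up nitrogen-fixing rhizobia into root nodules. Their infected cells are known for very abundant transcripts of a small number of gene families, among them the leghaemoglobins, heme proteins that carry oxygen to the bacteria while keeping its free concentration low. The series title names CPOP1 as an enzyme of heme synthesis. In bacteria, hemF encodes the coproporphyrinogen oxidase of that pathway. None of this could be tied to a particular identifier here.

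The sequencing depth is unknown, because the table holds FPKM and no counts. Total FPKM lay between 985272 and 1224719 per library, with every cpop1 21 dpi library above every library of the other groups. WT 10 dpi replicate 3 stood apart from its own group: its mean correlation over tested rows was 0.843 with WT 10 dpi replicates 1 and 2, and 0.935 with the cpop1 10 dpi libraries. Among the 69 abundant genes, replicates 1 and 2 of WT 10 dpi were over 2-fold apart for 0, whereas replicate 3 lay over 2-fold from both replicates' geometric mean for 30, and was the lower one in 20 of them. It was nearer the cpop1 10 dpi libraries for 49 of the 69 genes (71.0%), close to the 72.5% of all tested rows. The library was kept under its label. Values taken without it are given where stated, and all others include it.

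The same 3 genes had the highest FPKM in every library: LotjaGi5g1v0024700, LotjaGi5g1v0046500 and LotjaGi5g1v0024900, in this order by mean. LotjaGi5g1v0024700 had 164464, 151198 and 176570.1 FPKM in cpop1 nodules at 21 dpi, against 97261, 103675 and 91133 FPKM in WT nodules at 21 dpi. It had 68878, 69125 and 86115 FPKM in cpop1 at 10 dpi, against 66650.1, 69331 and 57638 FPKM in WT at 10 dpi. The genotypes stood apart at 21 dpi and their libraries overlapped at 10 dpi. LotjaGi5g1v0046500 had 148054, 152653 and 155813 FPKM in cpop1 at 21 dpi, against 52516, 52922 and 43412 FPKM in WT at 21 dpi. At 10 dpi it had 38723, 41345 and 47173 FPKM in cpop1, against 21937, 23473 and 24053 FPKM in WT. The cpop1 libraries were above the WT libraries at both ages for this gene. LotjaGi5g1v0024900 had 50962, 48214 and 55026 FPKM in cpop1 at 21 dpi, against 35678, 37314 and 34437 FPKM in WT at 21 dpi. At 10 dpi it had 17361, 17868 and 22103 FPKM in cpop1, against 19426, 20211 and 15932 FPKM in WT, with overlapping libraries.

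**Figure D1:**
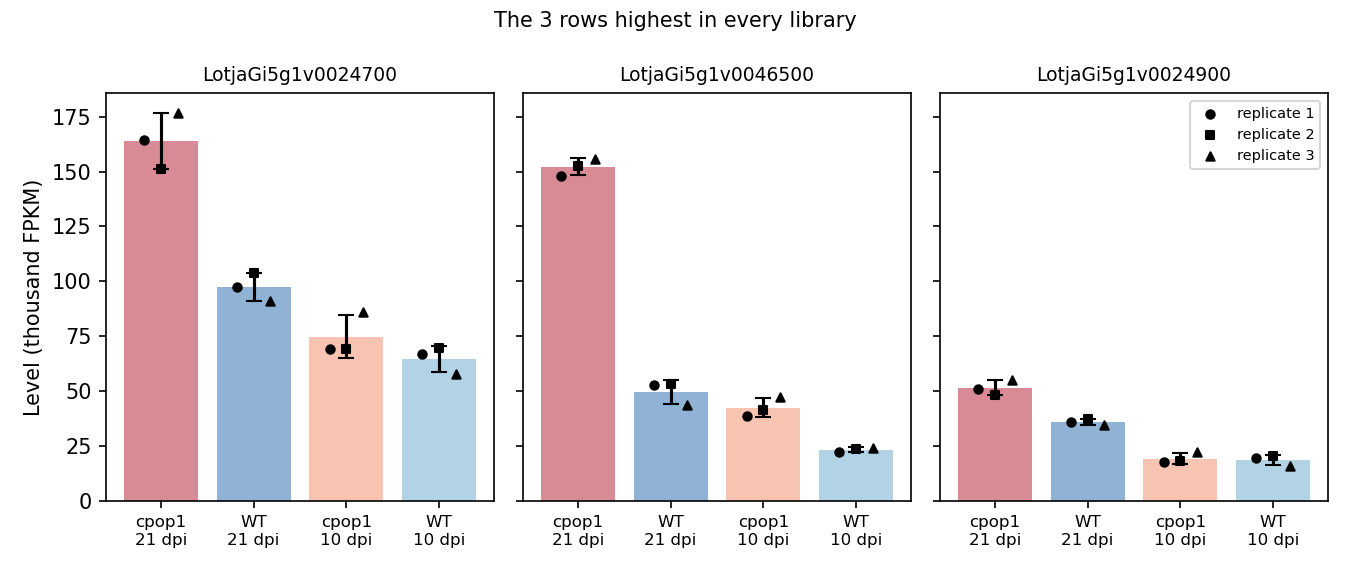
FPKM of the 3 genes that were highest in every library, 1 panel per gene, with the 4 groups on the x axis and FPKM on the y axis, in units of 1000; bars are means of 3 libraries, error bars their SD and points the libraries. LotjaGi5g1v0046500 averaged 152173 FPKM in cpop1 at 21 dpi, against 49617 FPKM in WT at 21 dpi, the widest gap between genotypes of the 3 genes.

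These levels were compared in a linear model fitted with limma to log2(FPKM + 1) of all 22249 rows with at least 1 FPKM in at least 3 libraries, and calls were made where the p, adjusted by Benjamini-Hochberg over all of them, was under 0.05. Of the 3 genes, LotjaGi5g1v0046500 rose in cpop1 at 21 dpi, by 1.62 on the log2 scale (SE 0.38, limma adjusted p = 0.0044). LotjaGi5g1v0024700 had a log2 difference of 0.75 (SE 0.47, limma adjusted p = 0.193) and LotjaGi5g1v0024900 one of 0.52 (SE 0.31, limma adjusted p = 0.177), and neither was called. These SEs follow a variance trend over expression level that was fitted to all rows. Fitted without the trend, both SEs were 0.14 and the limma adjusted p was 0.00113 for LotjaGi5g1v0024700 and 0.00964 for LotjaGi5g1v0024900, while without the filter on low rows LotjaGi5g1v0046500 had a limma adjusted p of 0.414. Without WT 10 dpi replicate 3 in the shared fit, LotjaGi5g1v0024700 had a limma adjusted p of 0.0489 and LotjaGi5g1v0024900 one of 0.0463 at 21 dpi. Quantile normalization gives each rank the same value in every library, so it fixes the values of these 3 genes by their places. LotjaGi5g1v0046500 was second in 11 libraries and first in 1, a cpop1 21 dpi library, and its difference was then 0.28 by construction (limma adjusted p = 0.453). At 10 dpi the cpop1 minus WT differences were 0.21 for LotjaGi5g1v0024700, 0.87 for LotjaGi5g1v0046500 and 0.04 for LotjaGi5g1v0024900, with limma adjusted p of 0.756, 0.113 and 0.926. Without WT 10 dpi replicate 3 the difference of LotjaGi5g1v0046500 was 0.90 (limma adjusted p = 0.0184). With all libraries its limma adjusted p was 0.00138 without the trend, 0.0123 with the filter at 5 FPKM and 7.37e-05 with library weights. It was not called at 10 dpi in the other settings tried.

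Between 21 and 10 dpi, LotjaGi5g1v0046500 rose by 1.85 on the log2 scale in cpop1 (SE 0.38, limma adjusted p = 0.00495) and by 1.10 in WT (SE 0.38, limma adjusted p = 0.0451). LotjaGi5g1v0024900 rose by 1.43 in cpop1 (SE 0.31, limma adjusted p = 0.00687) and by 0.96 in WT (SE 0.31, limma adjusted p = 0.0364). LotjaGi5g1v0024700 was called in neither genotype, with differences of 1.14 in cpop1 (SE 0.47, limma adjusted p = 0.0936) and 0.60 in WT (SE 0.47, limma adjusted p = 0.342). Its 21 dpi libraries were nevertheless all above its 10 dpi libraries in both genotypes, and these SEs follow the same variance trend. None of the 3 genes was called for a genotype effect that differed between the ages, with limma adjusted p of 0.607, 0.357 and 0.490 in the order of their means.

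A ratio of 2 genes within a library does not depend on how the library was scaled. LotjaGi5g1v0046500 stood at 0.900, 1.01 and 0.882 times the FPKM of LotjaGi5g1v0024700 in the cpop1 21 dpi libraries, against 0.540, 0.511 and 0.476 times in the WT 21 dpi libraries. At 10 dpi the ratio was 0.562, 0.598 and 0.548 in cpop1, against 0.329, 0.339 and 0.417 in WT. The ratio was thus higher in every cpop1 library than in every WT library of its age, 1.83 times higher at 21 dpi and 1.58 times at 10 dpi. In both comparisons the exact two-sided permutation p was 0.1, the smallest that 3 against 3 libraries can give. The ratio of LotjaGi5g1v0024900 to LotjaGi5g1v0024700 moved less: it averaged 0.314 ± 0.0048 in cpop1 and 0.368 ± 0.0091 in WT at 21 dpi, and 0.256 ± 0.0033 in cpop1 and 0.286 ± 0.0087 in WT at 10 dpi (SD, n = 3 each). Its libraries did not overlap between genotypes at either age, with the ratio in cpop1 at 0.851 times that in WT at 21 dpi and 0.893 times at 10 dpi (exact permutation p = 0.1 in both). LotjaGi5g1v0046500 and LotjaGi5g1v0024700 were thus near parity in cpop1 at 21 dpi, and in the other groups LotjaGi5g1v0046500 was at 0.362 to 0.569 times the other gene on average. Whether these identifiers share near-identical sequence, over which reads could be split or assigned in common, was not analysed here.

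The 69 genes made up 40.3 ± 0.912% of a library's FPKM in cpop1 and 34.0 ± 1.06% in WT nodules at 21 dpi, and 24.4 ± 1.13% in cpop1 and 25.5 ± 4.86% in WT nodules at 10 dpi (SD, n = 3 each). The 3 highest genes alone held 30.6 ± 1.02%, 16.7 ± 1.28%, 13.0 ± 1.34% and 10.6 ± 1.07% in the same groups. The other 66 went the opposite way between genotypes, with 9.65 ± 0.113% in cpop1 and 17.4 ± 0.350% in WT at 21 dpi. At 10 dpi these 66 genes held 11.4 ± 0.426% in cpop1 and 14.9 ± 3.84% in WT, where the single WT libraries held 17.4%, 16.75% and 10.4%. The low one was replicate 3, and without it the share of all 69 genes at 10 dpi differed by -3.85 percentage points (cpop1 minus WT), against -1.04 points with it. Leaving out WT 10 dpi replicate 1 or 2 instead turned that difference round, to 0.389 and 0.336 points higher in cpop1.

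**Figure D2:**
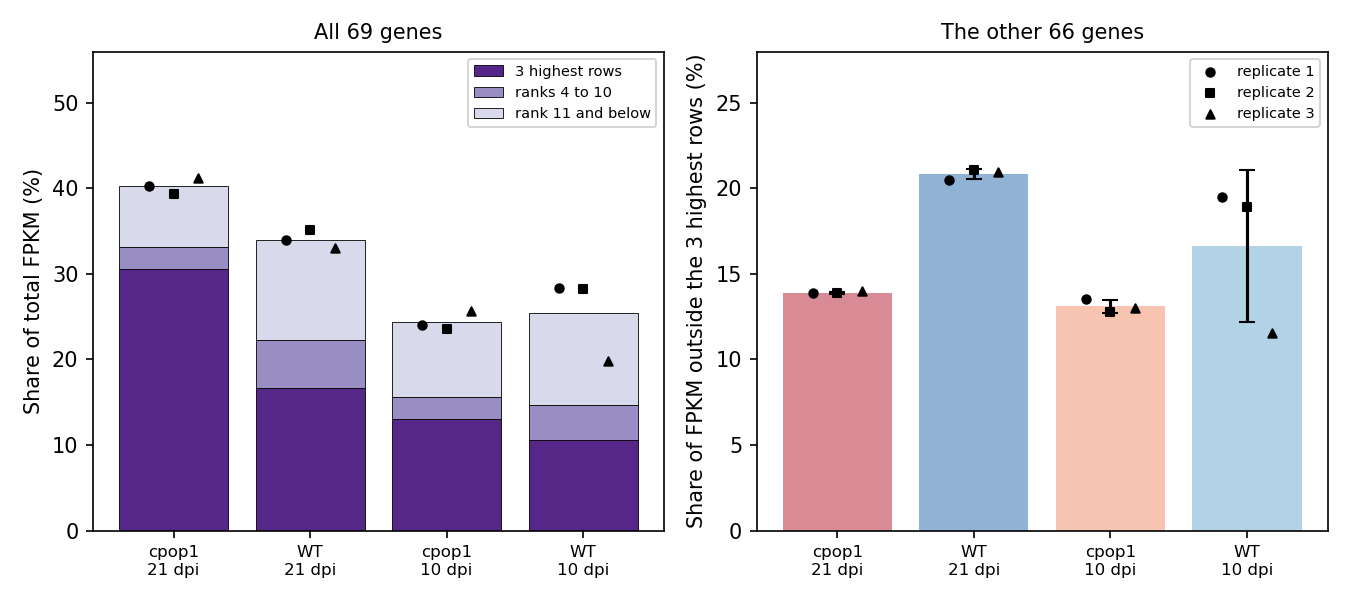
Left, mean share of total FPKM of the 69 genes per group, in percent, stacked as the 3 highest, ranks 4 to 10 and the 59 genes below, with points for the libraries' totals; right, mean share of the other 66 genes in the FPKM outside the 3 highest, with SD and a point per library. The 3 highest genes took 30.6% in cpop1 at 21 dpi, against 16.7% in WT at 21 dpi, while ranks 4 to 10 took 2.49% in cpop1 and 5.64% in WT at 21 dpi.

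Because FPKM is relative, the share of the 66 genes was also taken of the FPKM outside the 3 highest genes. It was 13.9 ± 0.0601% in cpop1 and 20.8 ± 0.292% in WT at 21 dpi, and 13.1 ± 0.391% in cpop1 and 16.7 ± 4.45% in WT at 10 dpi, so the lower share in cpop1 at 21 dpi was also present on this scale. The 10 dpi WT libraries had 19.5%, 18.9% and 11.5%, the last below all cpop1 10 dpi libraries. These are bulk libraries, in which fewer cells of a type and less RNA per cell cannot be told apart.

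Below the 3 highest genes the levels dropped steeply. The 3 genes made up 58.0% of the FPKM of all 69 on average and the 10 highest made up 69.7%. The next gene by mean, LotjaGi1g1v0576500, had 9295, 10102 and 9653 FPKM in cpop1 at 21 dpi and 11681, 10399 and 10773 FPKM in WT at 21 dpi. It had 3762, 3975 and 4659 FPKM in cpop1 at 10 dpi, against 10315, 9505 and 5495 FPKM in WT at 10 dpi, so that its low group was cpop1 at 10 dpi. There it fell by 0.98 on the log2 scale relative to WT (SE 0.27, limma adjusted p = 0.0266), a call lost when WT replicate 1 or 2 or cpop1 replicate 1 or 2 of that age was left out, with limma adjusted p of 0.0658 to 0.106. Without WT 10 dpi replicate 3 the 10 dpi difference was -1.27 (limma adjusted p = 6.04e-05). At 21 dpi the difference was -0.18 (limma adjusted p = 0.59).

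LotjaGi1g1v0199700 had 1028, 1225 and 1694 FPKM in cpop1 at 21 dpi, against 13261, 12432 and 12249 FPKM in WT at 21 dpi. It was the fourth most abundant row of WT nodules at that age, with 1.15% of total FPKM, and held place 50 in cpop1. At 10 dpi it had 1195, 1279 and 1299 FPKM in cpop1, against 7317, 6816 and 1040.3 FPKM in WT, where replicate 3 fell below every cpop1 library of that age. At 21 dpi it fell by 3.295 on the log2 scale in cpop1 (SE 0.60, limma adjusted p = 0.00104). At 10 dpi the difference was -1.57 (limma adjusted p = 0.0779) with all libraries and -2.49 (limma adjusted p = 1.36e-06) without WT replicate 3.

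LotjaGi1g1v0273300 had 898, 908 and 835 FPKM in cpop1 at 21 dpi, against 7313, 8661 and 8874 FPKM in WT at 21 dpi. At 10 dpi it had 8385, 5585 and 3559 FPKM in cpop1, against 8527, 7932 and 2283 FPKM in WT. The low values were thus those of mutant nodules at 21 dpi, where it fell by 3.23 on the log2 scale relative to WT (SE 0.47, limma adjusted p = 0.000273). LotjaGi5g1v0251100 had 2537, 2708 and 2818 FPKM in cpop1 at 21 dpi, against 6434, 6193 and 7116 FPKM in WT at 21 dpi. It fell by 1.29 on the log2 scale in cpop1 (SE 0.35, limma adjusted p = 0.0101), a call lost with quantile normalization (limma adjusted p = 0.118). Its 10 dpi values were 4084, 3421 and 3834 FPKM in cpop1, against 8011, 7472 and 2713 FPKM in WT, again with WT replicate 3 below all mutant libraries. The 10 dpi difference was -0.53 (limma adjusted p = 0.271) with all libraries and -1.04 (limma adjusted p = 9.33e-05) without WT replicate 3.

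The remaining 3 of the 10 highest genes were not called between genotypes at either age. LotjaGi5g1v0317900 had 5009, 5407 and 5821 FPKM in cpop1 at 21 dpi, against 7545, 8075 and 7468 FPKM in WT at 21 dpi (log2 difference -0.51, limma adjusted p = 0.103). LotjaGi1g1v0517100 had 5233, 5566 and 6204 FPKM in cpop1 at 21 dpi, against 9496, 8183 and 7787 FPKM in WT at 21 dpi (log2 difference -0.58, limma adjusted p = 0.071). LotjaGi2g1v0256400 had 4118, 4169 and 4290.0 FPKM in cpop1 at 21 dpi, against 7696, 6962 and 7118 FPKM in WT at 21 dpi (log2 difference -0.79, limma adjusted p = 0.0829). All 3 had every cpop1 library below every WT library at 21 dpi, and without WT 10 dpi replicate 3 in the shared fit their limma adjusted p at 21 dpi was 0.0493, 0.00677 and 0.000173. At 10 dpi LotjaGi5g1v0317900 had 3781, 5520.0 and 7359 FPKM in cpop1, against 5844, 5939.9 and 5311 FPKM in WT. LotjaGi1g1v0517100 had 2918, 3663 and 4051 FPKM in cpop1, against 5646, 5415 and 3278 FPKM in WT at that age. LotjaGi2g1v0256400 had 3387, 2791 and 2834 FPKM in cpop1, against 4862, 4953 and 1661 FPKM in WT at that age. The genotypes overlapped at 10 dpi for all 3. With all libraries the 10 dpi differences were -0.09 for LotjaGi5g1v0317900 (limma adjusted p = 0.808), -0.40 for LotjaGi1g1v0517100 (limma adjusted p = 0.247) and -0.19 for LotjaGi2g1v0256400 (limma adjusted p = 0.704). They were -0.14 (limma adjusted p = 0.628), -0.65 (limma adjusted p = 0.00761) and -0.71 (limma adjusted p = 0.00106) without WT 10 dpi replicate 3, so that LotjaGi1g1v0517100 and LotjaGi2g1v0256400 were then called lower in cpop1.

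The genes differed in which groups carried their abundance. Means of 1000 FPKM or more were reached by 40 of the 69 genes in cpop1 and 59 in WT at 21 dpi, and by 50 in cpop1 and 58 in WT at 10 dpi. These counts reuse the values that chose the genes, so they are descriptions. Of all annotated nuclear rows, 64, 63 and 66 reached 1000 FPKM in the cpop1 21 dpi libraries and 88, 83 and 92 in those of WT. At 10 dpi 75, 65 and 64 rows did so in the cpop1 libraries and 82, 76 and 66 in those of WT. Of the 69 genes, 22 had a mean of 1000 FPKM or more in all 4 groups, 26 in 3, 20 in 2 and 1 in a single group. The largest class after the 22 was of 17 genes that stayed below 1000 FPKM only in cpop1 at 21 dpi. Their summed share was 0.774% in cpop1 at 21 dpi, against 4.72% in WT at 21 dpi, and it was 3.38% in cpop1 and 3.95% in WT at 10 dpi. A further 8 genes reached 1000 FPKM in WT nodules of both ages but in cpop1 nodules of neither. They held 0.320% in cpop1 and 1.73% in WT at 21 dpi, and 0.399% in cpop1 and 1.40% in WT at 10 dpi. Both classes were defined by the group means, so their lower shares in the groups below 1000 FPKM follow from the definition. With the WT 10 dpi mean taken without replicate 3, the 17 and the 8 genes were the same, 21 genes reached 1000 FPKM in all 4 groups, and 55 reached it in WT at 10 dpi.

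The opposite genotype pattern, 1000 FPKM in cpop1 at both ages and in WT at neither, was shown by 2 genes, LotjaGi4g1v0288300 and LotjaGi1g1v0508300. A class of 7 genes reached 1000 FPKM at 21 dpi in both genotypes and at 10 dpi in neither, and 6 genes stayed below it only in WT at 21 dpi. These 3 classes held 5, 6 and 3 genes without WT 10 dpi replicate 3. LotjaGi2g1v0137400 was the single gene whose mean reached 1000 FPKM in 1 group, WT at 21 dpi. Its libraries there were far apart, at 1400.0, 5451 and 4668 FPKM. The highest of the 4 group means was in cpop1 at 21 dpi for 15 genes, in WT at 21 dpi for 34, in cpop1 at 10 dpi for 9 and in WT at 10 dpi for 11. The lowest was in cpop1 at 21 dpi for 30, in WT at 21 dpi for 13, in cpop1 at 10 dpi for 16 and in WT at 10 dpi for 10.

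**Figure D3:**
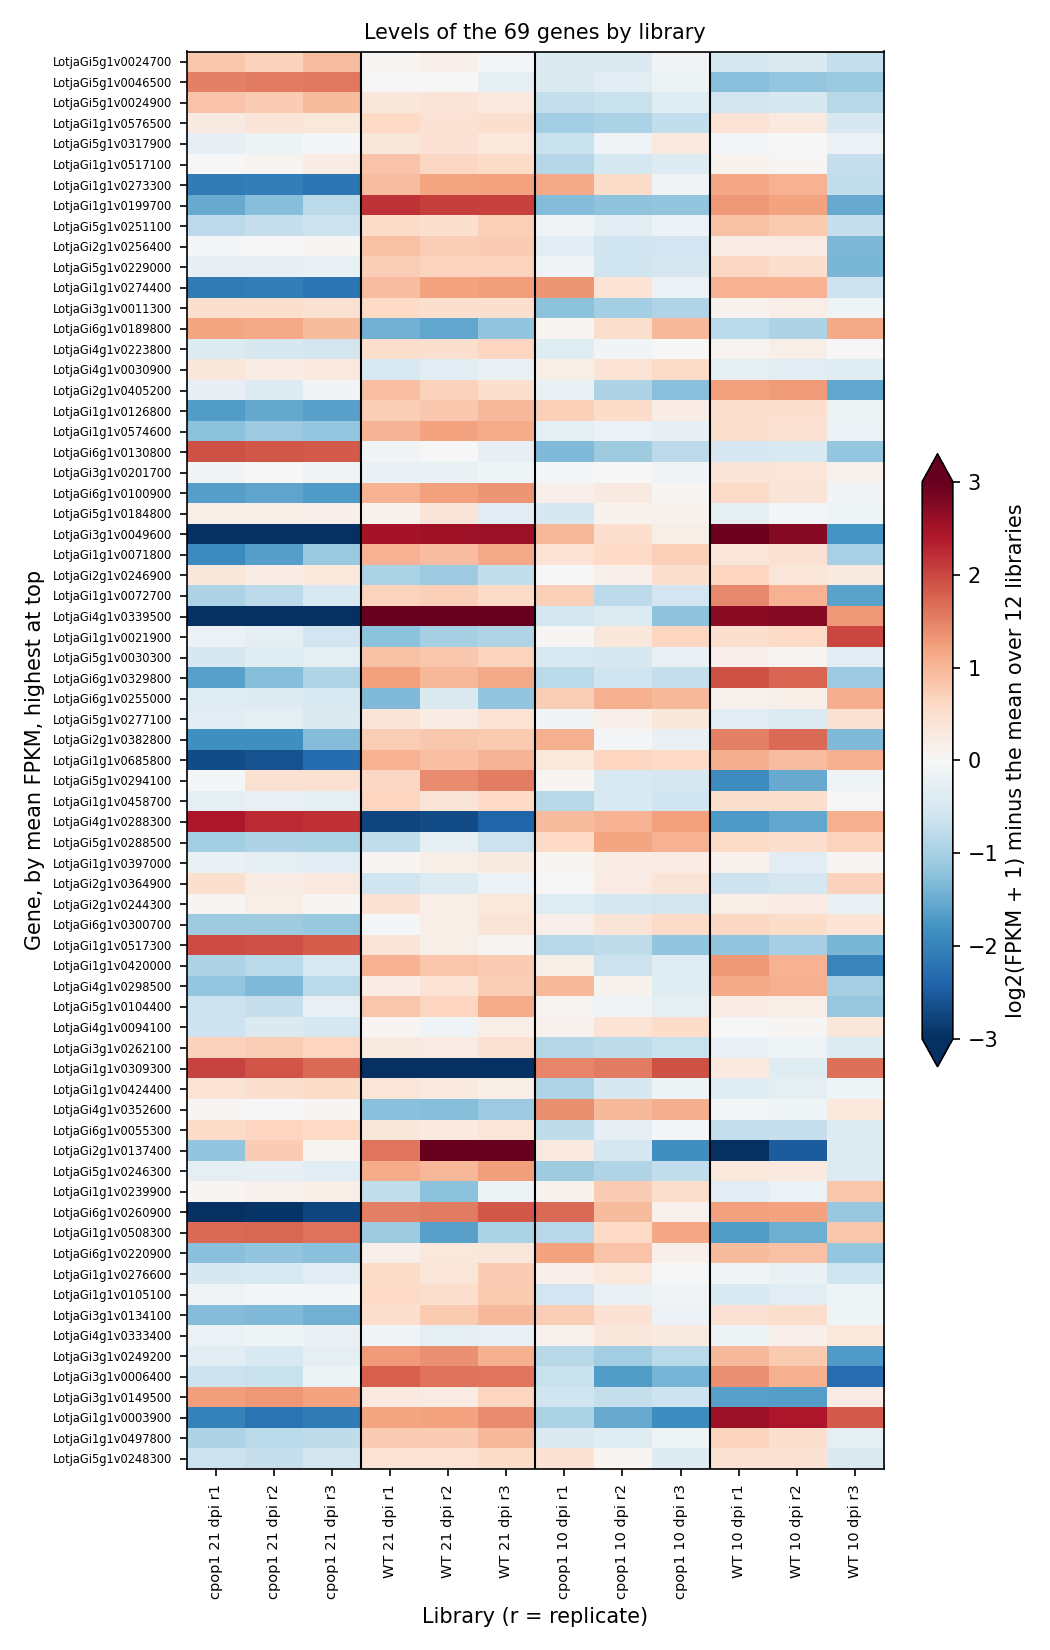
Level of the 69 genes in the 12 libraries, as log2(FPKM + 1) minus the gene's mean over libraries, with genes in rows, libraries in columns by group, and colours that saturate at 3 above (red) or below (blue) the mean. The cpop1 21 dpi columns hold the lowest group mean for 30 of the genes and the highest for 15, and the column of WT 10 dpi replicate 3 differs from those of replicates 1 and 2.

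The spread over libraries ranged widely. The ratio of the highest to the lowest library was between 1.50 and 800 per gene, with a median of 5.30. It was under 2 for 6 genes, between 2 and 10 for 46, between 10 and 100 for 14 and above 100 for 3. LotjaGi3g1v0201700 was the steadiest at 1.50, with 2181, 2289 and 2136 FPKM in cpop1 and 2007, 1990.3 and 2115 FPKM in WT at 21 dpi, and 2241, 2279 and 2116 FPKM in cpop1 and 2981, 2933 and 2512 FPKM in WT at 10 dpi. LotjaGi4g1v0333400 (1.51) and LotjaGi1g1v0397000 (1.52) were next. LotjaGi4g1v0333400 had 964, 994 and 941 FPKM in cpop1 and 1014, 903 and 932 FPKM in WT at 21 dpi, and 1178, 1366 and 1308 FPKM in cpop1 and 968, 1206 and 1342 FPKM in WT at 10 dpi. LotjaGi1g1v0397000 had 1191, 1122 and 1088 FPKM in cpop1 and 1429, 1554 and 1652 FPKM in WT at 21 dpi, and 1444, 1601 and 1620.1 FPKM in cpop1 and 1501, 1099.8 and 1409 FPKM in WT at 10 dpi. At 1000 FPKM or more in all 12 libraries were 18 genes, and 5 fell under 100 FPKM in some library.

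At 21 dpi more of the abundant genes were lower than higher in cpop1. Called were 45 of the 69 genes, 11 higher and 34 lower in cpop1, where 57.6% of all tested rows were called, 29.2% higher and 28.4% lower. At least 2-fold lower were 28 genes (14.5% of all tested rows) and at least 2-fold higher were 9 (18.1% of all tested rows). The median log2 difference was -0.79 over the 69 genes and 0.05 over all tested rows. The libraries of the genotypes did not overlap for 66 of the 69 genes and for 76.4% of all tested rows. Of these 66 genes 20 were higher and 46 lower in cpop1, against 40.1% and 36.2% of all tested rows. The count lower was above the count higher under every scaling tried. It was 18 higher and 24 lower under quantile normalization. When libraries were set to a common total or a common median it was 10 higher and 38 lower. The median over all tested rows was then -0.05 under quantile normalization, -0.05 with a common total and -0.11 with a common median. The share of all tested rows called is not given for these scalings, so their counts describe no trait of the 69 genes. Without WT 10 dpi replicate 3 in the shared fit 61 were called, where 71.2% of all tested rows were.

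LotjaGi1g1v0309300 had 2393, 2159 and 1893 FPKM in cpop1 at 21 dpi, against 30.8, 27.5 and 49.5 FPKM in WT at 21 dpi. It rose by 5.90 on the log2 scale (SE 0.42, limma adjusted p = 3.96e-06), the largest rise among the 69 genes in this comparison. LotjaGi4g1v0288300 had 3836, 3379 and 3262 FPKM in cpop1, against 105, 111 and 136 FPKM in WT, and rose by 4.89 (SE 0.57, limma adjusted p = 7.71e-05). LotjaGi1g1v0508300 had 2511, 2534 and 2374 FPKM in cpop1, against 368, 251 and 398 FPKM in WT, and rose by 2.89 (SE 0.63, limma adjusted p = 0.00306). At 21 dpi these 3 genes stood at places 23, 14 and 18 of all rows in mutant nodules, and at places 4412, 1341 and 368 in WT nodules. LotjaGi4g1v0288300 and LotjaGi1g1v0508300 reached a mean of 1000 FPKM in the cpop1 groups alone. They passed the rule through those groups, so a higher level in cpop1 followed from how the genes were chosen.

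LotjaGi4g1v0339500 showed the largest fall. It had 10.5, 7.11 and 10.8 FPKM in cpop1 at 21 dpi, against 5072, 3979 and 5687 FPKM in WT at 21 dpi, and fell by 8.88 on the log2 scale (SE 0.37, limma adjusted p = 1.59e-07). It held place 15 among all rows in WT and place 10369 in cpop1 at this age. LotjaGi3g1v0049600 had 23.9, 30.2 and 44.4 FPKM in cpop1, against 3889.7, 4023 and 4197 FPKM in WT, and fell by 6.94 (SE 0.98, limma adjusted p = 0.000241). LotjaGi6g1v0260900 had 63.5, 82.8 and 95.2 FPKM in cpop1, against 1855, 1906 and 2353 FPKM in WT, and fell by 4.66 (SE 0.58, limma adjusted p = 0.000109). None of the 3 had a cpop1 library within an order of magnitude of a WT library at 21 dpi. LotjaGi4g1v0339500 passed the rule through the WT groups alone, so a lower level in cpop1 followed from how the genes were chosen.

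**Figure D4:**
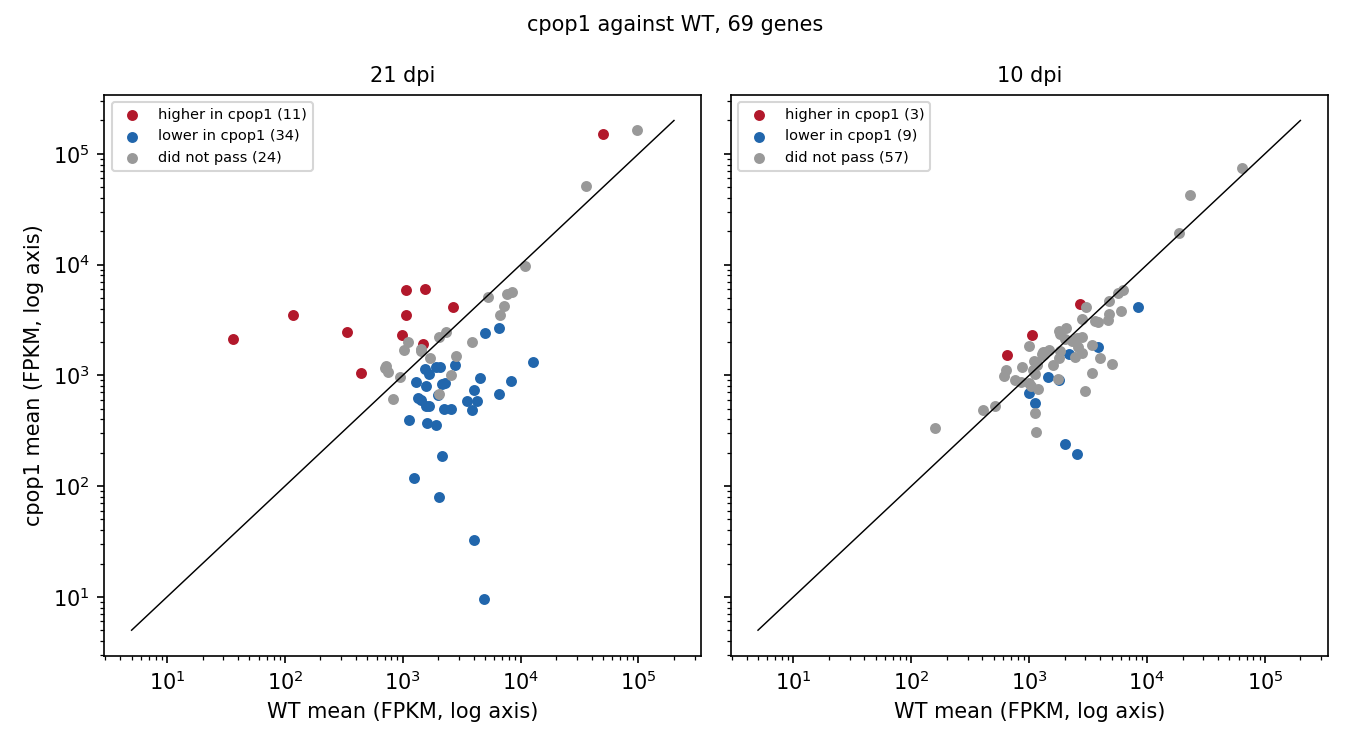
Group means of the 69 genes in cpop1 against WT nodules, at 21 dpi and at 10 dpi, in FPKM on log axes, with a point per gene, coloured by its limma call, and the diagonal marking equal levels. At 21 dpi the points spread on both sides of the diagonal, with 34 genes called lower and 11 called higher in cpop1, and at 10 dpi 9 were called lower and 3 higher.

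At 10 dpi 12 of the 69 genes were called, 3 higher and 9 lower in cpop1, where 22.7% of all tested rows were called, 11.4% higher and 11.3% lower. At least 2-fold higher were 2 genes and at least 2-fold lower were 3, against 6.61% and 4.13% of all tested rows. The libraries did not overlap for 15 genes, against 28.5% of all tested rows, with 4 genes higher (12.8% of rows) and 11 lower (15.7% of rows). The median log2 difference was -0.12 over the 69 genes and 0.02 over all tested rows. This comparison rested on WT replicate 3: without it 44 genes were called, 15 higher and 29 lower, and so were 63.9% of all tested rows, 36% higher and 27.9% lower.

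LotjaGi1g1v0003900 had 266, 180.0 and 140.2 FPKM in cpop1 at 10 dpi, against 3039, 2785 and 1862 FPKM in WT at 10 dpi. It fell by 3.73 on the log2 scale (SE 0.24, limma adjusted p = 3.58e-06), and at 21 dpi it fell by 3.39 (SE 0.24, limma adjusted p = 3.61e-06), with 125, 110.5 and 121 FPKM in cpop1 against 1179, 1199.9 and 1389.8 FPKM in WT. Its level was lower in the mutant at both ages. Both this gene and LotjaGi4g1v0339500 reached a mean of 1000 FPKM in the WT groups alone. They passed the rule through those groups, so a lower level in cpop1 followed from how the genes were chosen. LotjaGi4g1v0339500 had 264, 289 and 165 FPKM in cpop1 at 10 dpi, against 2521, 2605 and 948 FPKM in WT at 10 dpi, and fell by 2.98 (SE 0.37, limma adjusted p = 0.000492). LotjaGi3g1v0011300 had 1569, 1825 and 1987 FPKM in cpop1, against 3946, 4256 and 3355 FPKM in WT at 10 dpi, and fell by 1.10 (SE 0.18, limma adjusted p = 0.00222). At 21 dpi LotjaGi3g1v0011300 differed by -0.05 (limma adjusted p = 0.818), with 5119, 5138 and 5082 FPKM in cpop1 against 5571, 5193 and 5139.5 FPKM in WT.

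Higher in cpop1 at 10 dpi with no overlap of libraries were 2 called genes. LotjaGi4g1v0352600 had 2704, 2025 and 2174 FPKM in cpop1, against 981, 943 and 1275 FPKM in WT, and rose by 1.11 on the log2 scale (SE 0.16, limma adjusted p = 0.00131). It rose by 1.23 at 21 dpi (SE 0.16, limma adjusted p = 0.000155), with 1057, 1029 and 1047 FPKM in cpop1 against 430.4, 421 and 484 FPKM in WT. LotjaGi4g1v0030900 had 3833, 4472 and 5048 FPKM in cpop1 at 10 dpi, against 2773, 2654 and 2653 FPKM in WT, and rose by 0.72 (SE 0.17, limma adjusted p = 0.0159). It rose by 0.62 at 21 dpi (SE 0.17, limma adjusted p = 0.0102), with 4281, 3939.5 and 4145 FPKM in cpop1 against 2455, 2690.5 and 2912 FPKM in WT. The 10 dpi call of LotjaGi4g1v0030900 was lost without WT replicate 2 or cpop1 replicate 2 or 3 of that age, with limma adjusted p between 0.0535 and 0.0601. In fits of the 10 dpi libraries alone LotjaGi4g1v0352600, LotjaGi4g1v0030900 and LotjaGi3g1v0011300 had limma adjusted p of 0.0855, 0.21 and 0.0953. In the shared fit without WT 10 dpi replicate 3 these genes had limma adjusted p of 1.21e-05, 0.00166 and 2.59e-05 at 10 dpi. The third gene called higher, LotjaGi4g1v0288300, had 1396, 1479 and 1686 FPKM in cpop1, against 216, 242 and 1494 FPKM in WT, where replicate 3 reached the mutant's range (log2 difference 1.82, limma adjusted p = 0.0438).

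**Figure D5:**
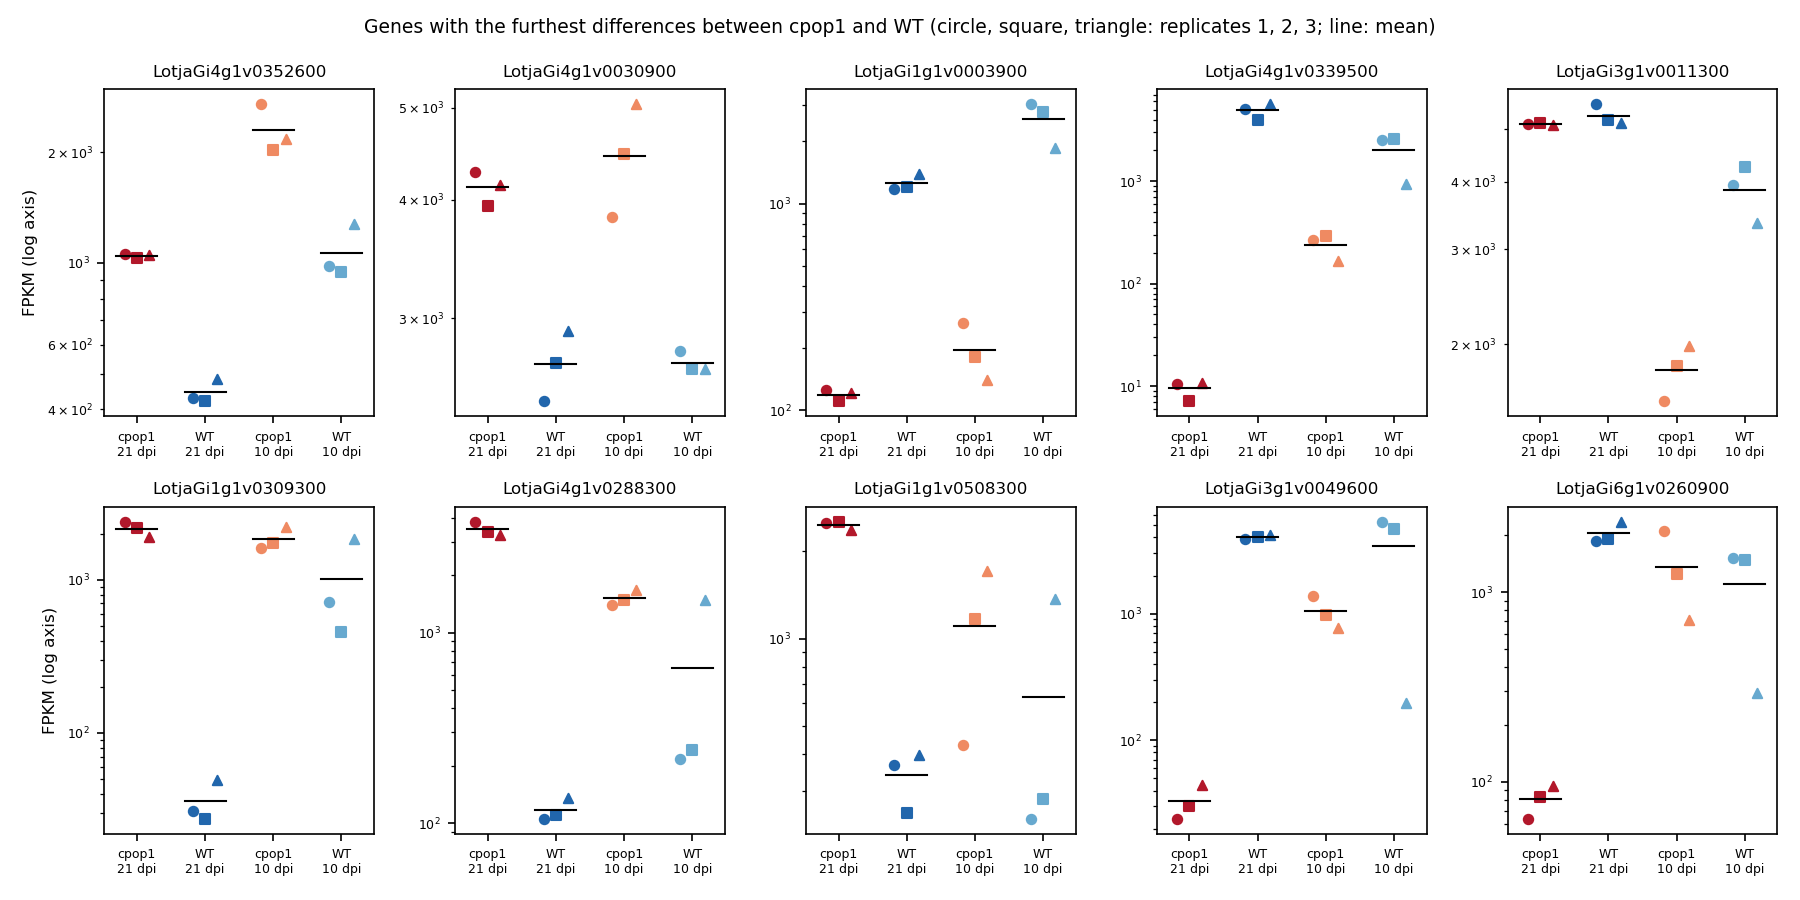
FPKM on a log axis of the 10 genes named for the largest called differences between genotypes at 10 or 21 dpi, 1 panel per gene, with the 4 groups on the x axis, a point per library and a line at the group mean; the FPKM range differs between panels. LotjaGi4g1v0339500 lies between 7.11 and 10.8 FPKM in cpop1 at 21 dpi, against 3979 to 5687 FPKM in WT at 21 dpi.

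Set side by side, 5 genes were called lower in cpop1 at both ages (7.88% of all tested rows) and 3 were called higher at both (7.14% of rows). The 5 were LotjaGi1g1v0003900, LotjaGi1g1v0458700, LotjaGi1g1v0685800, LotjaGi4g1v0339500 and LotjaGi5g1v0246300. Of these, LotjaGi1g1v0003900, LotjaGi4g1v0339500 and LotjaGi5g1v0246300 passed the rule through the WT groups alone. At 21 dpi alone 29 genes were called lower (19.8% of rows) and 7 higher (21.5% of rows). At 10 dpi alone 3 were called lower (2.85% of rows), and LotjaGi3g1v0262100 was called lower at 10 dpi and higher at 21 dpi (0.557% of rows). Called at neither age were 21 genes (36.0% of rows). These counts do not show that an effect differed between the ages, which is tested further down. They also rest on WT 10 dpi replicate 3, as without it 44 genes and 63.9% of all tested rows were called at 10 dpi. LotjaGi1g1v0199700 and LotjaGi5g1v0251100, counted here as lower at 21 dpi alone, were then called lower at 10 dpi (limma adjusted p = 1.36e-06 and 9.33e-05).

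With age, more of the abundant genes rose than fell in WT nodules. Between 21 and 10 dpi 31 of the 69 were called, 22 higher and 9 lower at 21 dpi, where 35.8% of all tested rows were called, 11.3% higher and 24.4% lower. The median log2 difference was 0.47 over the 69 genes and -0.23 over all tested rows. The all-row median depends on scaling, at 0.13 with a common median and -0.33 with a common total, and so did the split of the abundant genes, with 31 higher and 7 lower under the first and 17 higher and 13 lower under the second. Quantile normalization gave 13 higher and 11 lower. At least 2-fold higher at 21 dpi were 11 genes and at least 2-fold lower were 8, against 4.59% and 12.2% of all tested rows. Libraries did not overlap for 43 genes, against 49.2% of all tested rows, with 32 genes higher (16.2% of rows) and 11 lower (33% of rows). Without WT 10 dpi replicate 3 there were 37 calls, where 44.7% of all tested rows were called. Without WT 21 dpi replicate 1 or 3 there were 19 and 20. The share of all tested rows called is not given for those last fits or for the scalings. Their counts thus describe no trait of the 69 genes.

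LotjaGi2g1v0137400, which reached 1000 FPKM in WT at 21 dpi alone, rose most. It passed the rule through that group, so a rise there followed from how the genes were chosen. It had 1400.0, 5451 and 4668 FPKM in WT at 21 dpi, against 48.3, 80.4 and 350.3 FPKM in WT at 10 dpi. The log2 rise was 4.88 (SE 0.83, limma adjusted p = 0.00161). It was 5.70 without WT 10 dpi replicate 3, 4.28 without replicate 1 of that group, and 5.49 without WT 21 dpi replicate 1. LotjaGi5g1v0294100 had 1855, 3213 and 3485 FPKM in WT at 21 dpi, against 327, 421 and 1096 FPKM in WT at 10 dpi, and rose by 2.37 (SE 0.42, limma adjusted p = 0.00187). Its rise was 2.89 without WT 10 dpi replicate 3 (limma adjusted p = 2.53e-05). LotjaGi5g1v0294100 reached a mean of 1000 FPKM at 21 dpi alone, so its rise too followed from how the genes were chosen. LotjaGi1g1v0199700, whose libraries are given above, rose by 1.76 (SE 0.60, limma adjusted p = 0.0415). Without WT 10 dpi replicate 3 its rise was 0.84 (limma adjusted p = 0.00412), and the call was lost when any WT 21 dpi or any cpop1 library was left out, with limma adjusted p of 0.0553 to 0.101.

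The largest fall with age in WT was that of LotjaGi1g1v0309300, which had 30.8, 27.5 and 49.5 FPKM in WT at 21 dpi, against 717, 455 and 1838 FPKM in WT at 10 dpi. It fell by 4.56 on the log2 scale (SE 0.42, limma adjusted p = 5.03e-05). LotjaGi1g1v0021900 had 614, 723 and 779.7 FPKM in WT at 21 dpi, against 2065, 2201 and 5876 FPKM in WT at 10 dpi, and fell by 2.09 (SE 0.35, limma adjusted p = 0.00147). LotjaGi4g1v0288300 fell by 1.87 (SE 0.57, limma adjusted p = 0.0276). Its fall was 0.97 without WT 10 dpi replicate 3 (limma adjusted p = 0.000251), and it was not called when any 1 of the WT 21 dpi libraries was left out, with limma adjusted p of 0.0566 to 0.0795. In all 3 genes WT 10 dpi replicate 3 was the highest WT library. Without it the log2 differences were -4.0 for LotjaGi1g1v0309300 (limma adjusted p = 1.61e-06) and -1.60 for LotjaGi1g1v0021900 (limma adjusted p = 6.73e-05).

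In cpop1 nodules 31 genes were called between the ages, 12 higher and 19 lower at 21 dpi, where 29.5% of all tested rows were called, 8.03% higher and 21.5% lower. The median log2 difference was -0.10 over the 69 genes and -0.20 over all tested rows. With a common median, which moved the median of all tested rows to 0.08, the split was 16 higher and 16 lower, and with a common total, which moved it to -0.36, it was 10 higher and 27 lower. At least 2-fold higher at 21 dpi were 8 genes and at least 2-fold lower were 15, against 3.71% and 10.3% of all tested rows. Libraries did not overlap for 51 genes, against 58.3% of all tested rows, with 21 genes higher (17.5% of rows) and 30 lower (40.8% of rows). Without WT 10 dpi replicate 3 in the shared fit there were 52 calls, where 52% of all tested rows were called. That share is not given for the common median and the common total.

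LotjaGi6g1v0130800 had 6239.7, 5963 and 5939 FPKM in cpop1 at 21 dpi, against 655, 789 and 953 FPKM in cpop1 at 10 dpi. It rose by 2.93 on the log2 scale (SE 0.21, limma adjusted p = 1.15e-05) and reached place 6 of all rows in cpop1 nodules. Its WT libraries had 1554, 1639 and 1399 FPKM at 21 dpi, against 1165, 1198 and 739 FPKM at 10 dpi. LotjaGi1g1v0517300 had 3599, 3550.0 and 3274 FPKM in cpop1 at 21 dpi, against 521, 544 and 408 FPKM in cpop1 at 10 dpi, and rose by 2.83 (SE 0.16, limma adjusted p = 5.07e-06). LotjaGi3g1v0149500 had 1974, 2065 and 1911 FPKM in cpop1 at 21 dpi, against 552, 508 and 539 FPKM in cpop1 at 10 dpi, and rose by 1.89 (SE 0.41, limma adjusted p = 0.00642). The libraries of the 2 ages stood apart for each of these genes. LotjaGi1g1v0517300 and LotjaGi3g1v0149500 reached a mean of 1000 FPKM at 21 dpi alone, in both genotypes. They passed the rule through those groups, so a rise with age followed from how the genes were chosen.

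The largest fall with age in cpop1 was that of LotjaGi3g1v0049600, which had 23.9, 30.2 and 44.4 FPKM at 21 dpi, against 1389, 980.4 and 777 FPKM at 10 dpi. It fell by 4.96 on the log2 scale (SE 0.98, limma adjusted p = 0.00405). LotjaGi4g1v0339500 fell by 4.50 (SE 0.37, limma adjusted p = 2.56e-05), and LotjaGi6g1v0260900 fell by 3.94 (SE 0.58, limma adjusted p = 0.000737). LotjaGi6g1v0260900 had 2088, 1251 and 711 FPKM in cpop1 at 10 dpi, a spread in which every library still lay above the 21 dpi values given above. These are the same 3 genes that fell most in cpop1 relative to WT at 21 dpi, and both comparisons use the same cpop1 21 dpi libraries.

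Between the 2 genotypes, 9 genes were called higher at 21 dpi in both (2.11% of all tested rows) and 3 lower in both (8.89% of rows), the 3 being LotjaGi4g1v0352600, LotjaGi5g1v0288500 and LotjaGi6g1v0255000. The call was higher at 21 dpi in WT and lower at 21 dpi in cpop1 for 5 genes, LotjaGi1g1v0071800, LotjaGi1g1v0276600, LotjaGi1g1v0574600, LotjaGi4g1v0339500 and LotjaGi6g1v0100900 (1.34% of rows). None of the 69 had the reverse pair of calls (1.27% of rows), and 24 were called in neither genotype (48.3% of rows). The 9 include genes that passed the rule through the 21 dpi groups alone, for which a rise followed from how they were chosen.

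Whether the genotype effect itself differed between the ages was tested as the cpop1 minus WT difference at 21 dpi minus that at 10 dpi. Called were 27 of the 69 genes, 7 with a positive and 20 with a negative difference of effects, where 20% of all tested rows were called, 9.71% positive and 10.2% negative. Past a 2-fold difference of effects were 6 positive and 16 negative genes, against 7.24% and 6.82% of all tested rows. The median was -0.67 over the 69 genes and -0.01 over all tested rows. Quantile normalization gave 10 positive and 14 negative, a setting for which the share of all tested rows called is not given. Without WT 10 dpi replicate 3, 39 genes were called, where 38.9% of all tested rows were. The most negative was LotjaGi3g1v0049600, at -6.21 (SE 1.39, limma adjusted p = 0.0114). Its WT libraries at 10 dpi had 5337, 4657 and 197 FPKM, and the value was -4.65 without replicate 3, -7.03 without replicate 1 and -6.93 without replicate 2 of that group. LotjaGi4g1v0339500 followed at -5.90 (SE 0.53, limma adjusted p = 7.83e-05). The most positive were LotjaGi1g1v0309300 at 4.78 (SE 0.59, limma adjusted p = 0.00057) and LotjaGi4g1v0288300 at 3.07 (SE 0.81, limma adjusted p = 0.0237). The value of LotjaGi4g1v0288300 was 2.17 without WT 10 dpi replicate 3, and 5 single libraries, when left out, took its limma adjusted p to between 0.0511 and 0.0566.

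With all libraries in the fit, no comparison was called in 10 of the 69 genes, as in 23.7% of all tested rows. LotjaGi5g1v0024700, the most abundant of all, was one of the 10. Also among these 10 were LotjaGi5g1v0317900 of the 10 highest genes and LotjaGi4g1v0333400 of the 3 steadiest. A missed threshold does not show that their levels were equal, as the libraries of LotjaGi5g1v0024700 at 21 dpi show.

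By the numbering of their identifiers, 23 of the genes lay on chromosome 1, 7 on chromosome 2, 8 on chromosome 3, 8 on chromosome 4, 14 on chromosome 5 and 9 on chromosome 6. Per 1000 annotated rows of the chromosome this was 4.25, 2.41, 2.09, 2.40, 5.49 and 3.67 genes. All 3 of the highest genes carried chromosome 5 identifiers. Serial numbers within 500 of each other on the same chromosome were found for 2 pairs of genes, LotjaGi5g1v0024700 with LotjaGi5g1v0024900 and LotjaGi1g1v0517100 with LotjaGi1g1v0517300, each pair with 1 other identifier of the table between them.

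The 2 pairs differed in how alike their members were. Over the 12 libraries the log2 levels of the chromosome 5 pair had a Pearson correlation of 0.962 and those of the chromosome 1 pair one of 0.447, a description over libraries that fall into 4 groups. LotjaGi1g1v0517300 stood at 0.688, 0.638 and 0.528 times the FPKM of LotjaGi1g1v0517100 in the cpop1 21 dpi libraries, against 0.126, 0.128 and 0.124 times in the WT 21 dpi libraries. The ratio was 4.87 times higher in cpop1 (exact permutation p = 0.1, the smallest possible). At 10 dpi it was 0.179, 0.149 and 0.101 in cpop1, against 0.0715, 0.0850 and 0.109 in WT, and the libraries overlapped (exact permutation p = 0.2). Of the 2 genes, LotjaGi1g1v0517300 rose in cpop1 at 21 dpi, by 1.70 on the log2 scale (SE 0.16, limma adjusted p = 2.16e-05), and LotjaGi1g1v0517100 had a difference of -0.58 there that was not called.

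The genes whose levels followed those of the highest 3 most closely over the 12 libraries included LotjaGi1g1v0517300 in each case. LotjaGi5g1v0024700 was most like LotjaGi1g1v0517300 (Pearson correlation 0.964) and LotjaGi5g1v0046500 (0.963). LotjaGi5g1v0046500 was most like LotjaGi5g1v0024700 and, at 0.949, LotjaGi1g1v0517300. LotjaGi5g1v0024900 was most like LotjaGi5g1v0024700 (0.962) and LotjaGi1g1v0517300 (0.949). The libraries share their group means, so these values describe the pattern over groups.

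The threshold of 1000 FPKM has no gap around it. The 3 genes just above it were LotjaGi1g1v0003900 and LotjaGi1g1v0497800 at a mean of 1033 FPKM each and LotjaGi5g1v0248300 at 1025 FPKM, and the 3 just below were LotjaGi4g1v0339900 at 994 FPKM, LotjaGi5g1v0224200 at 982 FPKM and LotjaGi1g1v0029100 at 978 FPKM. A further 115 annotated nuclear rows had means from 500 to under 1000 FPKM. Of these, 76 (66.1%) were called between genotypes at 21 dpi, 37 higher (32.2%) and 39 lower (33.9%) in cpop1, with a median log2 difference of -0.04. Of all tested rows 57.6% were called, 29.2% higher and 28.4% lower, with a median of 0.05. Whether the split of the 115 rows differed from that of the 69 genes was not tested. Another 12 rows reached a mean of 1000 FPKM but were left out by their identifiers, 8 ending in _LC and 4 beginning with BGI_novel.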

How the data were processed

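Nodule RNA was sequenced in 12 libraries, 3 per group. The deposited values are FPKM, per the file headers, 1 column per library. The submitters' processing notes list the aligners HISAT and Bowtie2 2.2.5 without saying what each did. The build, the annotation and how FPKM was computed are not given in the sources used. Depth is unknown, so no counting interval is given. Groups and library numbers came from the sample titles, and columns were tied to samples through the labels' descriptions. Shares are percentages of a library's total FPKM.

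Rows with at least 1 FPKM in at least 3 libraries, 22249 in all, were fitted with limma 3.58.1 in R 4.3.3 on log2(FPKM + 1), with 1 mean per group and an intensity trend. Fold changes are on this scale, which understates changes of low rows, and p-values were Benjamini-Hochberg adjusted over all tested rows in each of 5 comparisons. The fit was tested on simulated data. Within-library ratios were tested by exact permutation, two-sided. Python 3.11.15, pandas 2.3.3, SciPy 1.17.1 and matplotlib 3.10.9 were used for the rest.

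The genes and lists were chosen with earlier results of these data known. Named with every library's value were the 10 highest genes by mean, the 3 most positive and 3 most negative called genes with no library overlap in each comparison of 2 groups, the 2 most positive and 2 most negative for the difference of effects, and the 3 steadiest. At 10 dpi only 2 genes qualified as higher. Genes nearest the threshold, most alike the highest 3 or adjacent in identifier order were named by mean, correlation or ratio. Genes listed by their pattern of calls were named after their values were seen.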

Additional observations from a re-analysis of the deposited data

Results flagged for a closer look

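Of the 27 genes whose cpop1 minus WT effect differed between 21 and 10 dpi in the test of that difference, the 2 most positive and 2 most negative were looked at again. LotjaGi1g1v0309300 had a difference of effects of 4.78 (SE 0.59, limma adjusted p = 0.00057), made of 5.90 at 21 dpi and 1.12 at 10 dpi on the log2 scale. LotjaGi4g1v0288300 had 3.07 (SE 0.81, limma adjusted p = 0.0237), made of 4.89 at 21 dpi and 1.82 at 10 dpi. LotjaGi3g1v0049600 had -6.21 (SE 1.39, limma adjusted p = 0.0114), made of -6.94 at 21 dpi and -0.74 at 10 dpi. LotjaGi4g1v0339500 had -5.90 (SE 0.53, limma adjusted p = 7.83e-05), made of -8.88 at 21 dpi and -2.98 at 10 dpi. In each of the 4 genes WT 10 dpi replicate 3 was the WT 10 dpi library nearest the cpop1 10 dpi libraries, or, for LotjaGi3g1v0049600, lay below them. Without it the differences of effects were 4.22, 2.17, -4.65 and -5.42 in the same order, all still called.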

How the results depend on the processing

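Over 53 values of single genes and 1160 alternatives, 1065 kept direction and side of the threshold, 36 newly passed it with the same sign, 39 no longer passed it and 20 changed sign, 1 of them passing the threshold. The sign changes were all in cpop1 minus WT differences that had not been called. At 10 dpi LotjaGi1g1v0273300 (0.04) went to -0.045 with a common median, -0.022 with a common total, -0.044 with a common total of the other rows and -0.53 with library weights (limma adjusted p = 0.000792, the 1 that passed). With a library left out it ranged from -0.58 (without WT 10 dpi replicate 3) to 0.37, and was -0.27 without cpop1 10 dpi replicate 1. LotjaGi5g1v0024900 (0.04) went to -0.038, -0.014, -0.036 and -0.15 under the first 4 of these, and ranged from -0.065 to 0.11 with a library left out, at -0.061 without WT 10 dpi replicate 3. With quantile normalization the 10 dpi differences were 0.010 for LotjaGi1g1v0517100, 0.25 for LotjaGi2g1v0256400 and 0.26 for LotjaGi5g1v0317900, and the 21 dpi differences were 0.22 for LotjaGi1g1v0576500 and -0.28 for LotjaGi5g1v0024700, the last fixed by its place among the highest rows. With a library left out LotjaGi2g1v0256400 ranged from -0.71 to 0.074, positive without WT 10 dpi replicate 1 or 2, and LotjaGi5g1v0317900 from -0.32 to 0.16, positive without cpop1 10 dpi replicate 1. Of the 69 genes, the number called between genotypes at 10 dpi was 12, and it was 6 with no filter, 60 with library weights, 2 with the compared groups alone and 6 to 44 with a library left out. For age in WT it was 31, with 49 under library weights, 11 with the compared groups alone and 19 to 37 with a library left out. For age in cpop1 it was 31, with 56, 47 and 27 to 52. At 21 dpi it was 45, with 37 to 61 when a library was left out, and for the difference of effects 27, with 48 under library weights and 19 to 39. The highest count with a library left out was each time that without WT 10 dpi replicate 3, and all tested rows moved too. Their share called went from 22.7% to 63.9% at 10 dpi and from 35.8% to 44.7% for age in WT. It went from 29.5% to 52% for age in cpop1, 57.6% to 71.2% at 21 dpi and 20% to 38.9% for the difference of effects. The share for the other settings is not given, so those counts describe no trait of the 69 genes. The cause of these moves was not tested. The share of the genes (cpop1 minus WT) was 6.25 points at 21 dpi, 5.74 to 6.79 with a library left out and 8.81 for a threshold of 2000 FPKM, and -1.04 points at 10 dpi, with -3.85 to 0.389 and 0.0801. The share of the 3 highest was 13.3 to 14.5 points higher in cpop1 at 21 dpi and 1.64 to 2.85 at 10 dpi. With a library left out the rule kept 65 to 70 genes, and 22 reached 1000 FPKM in every group. Whether library numbers pair the samples could not be settled, and the main fit left them unpaired. Same-numbered libraries had residual correlations of -0.12 to 0.27, and 4 of 12 correlated best with their own number. With the replicate block 46 genes were called between genotypes at 21 dpi, 12 at 10 dpi, 25 for age in WT, 28 for age in cpop1 and 24 for the difference of effects, and LotjaGi1g1v0199700 lost its call for age in WT (limma adjusted p = 0.0545). Alternatives chosen after seeing the data were the classes by groups reaching 1000 FPKM without WT 10 dpi replicate 3 and the within-library ratios with each library left out. Depth is unknown, and 3 libraries per group limit precision.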
